A study of Mus musculus with 6 samples.

Results

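The AP-1 family factors described here are 10 transcription factor genes, Fos, Fosb, Fosl1, Fosl2, Jun, Junb, Jund, Batf, Batf3 and Maff, taken by their symbols from a deposited count table with 46316 gene symbols. All 10 were in the table, and 9 of them were among the 13864 genes with enough counts for a test. RNA was sequenced from naive B cells of WT mouse spleen that had been kept for 2 days with 500 ng/mL of an antibody to CD40, which stands in for T cell help, and 5 ng/mL of IL-4, which steers B cells toward IgE. The IL-4 + bryostatin 1 group (3 samples) also received 0.8 nM bryostatin 1, an activator of protein kinase C (PKC), and the IL-4 group (3 samples) did not. The study asked how bryostatin 1 changes the transcripts of B cells under these switching conditions. For these samples the sources used here state neither the strain, age and sex of the mice nor whether replicates are separate mice or cultures. The p-values therefore reflect only how far these samples differ from each other, and that variation may be technical.

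AP-1 is not a single protein but a set of dimers that pair through a leucine zipper and grip DNA with a neighbouring basic region. Fos proteins (Fos, Fosb, Fosl1, Fosl2) cannot pair with each other stably and need a Jun partner, whereas Jun proteins (Jun, Junb, Jund) also pair among themselves. The dimers bind the palindrome TGANTCA, and dimers with ATF factors bind the related cyclic AMP response element TGACGTCA. Batf and Batf3 lack a transactivation domain and act as partners of Jun proteins, often next to IRF4 or IRF8. Batf is required in mouse B cells for switching of the antibody class. Maff is a small Maf protein, also without a transactivation domain, that pairs with itself or with CNC and BACH factors. PKC, through RAS and ERK, is a textbook inducer of Fos and Jun, whose messages appear within minutes of a stimulus and decay quickly, while Fosl1 and Fosl2 messages follow later. The samples here were taken at a single late time, so no early response was measured.

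Promoter sequences were looked up for all members and are printed for 4 of those whose transcripts differed, because Fos and Jun genes are themselves known targets of AP-1 and CREB type factors. RefSeq windows on build GRCm38.p6 were found for 9 of the 10 members, in 11 windows since Maff has 3 starts, and each was read over the 250 bases before the annotated start. The sequences below are those of Fos, Fosb and Jun, which were lower with bryostatin 1, and the window of Maff, which was higher, that carries a full cyclic AMP response element. Capitals mark the matches to TGACG, TGACGTCA or TGACATCA. The Fos window is chr12:85473640-85473889 on the plus strand, that of Fosb is chr7:19310046-19310295 on the minus strand, that of Jun is chr4:95052223-95052472 on the minus strand, and that of Maff is chr15:79347270-79347519 on the plus strand. All are written 5′ to 3′ in the direction of the gene.
Fos: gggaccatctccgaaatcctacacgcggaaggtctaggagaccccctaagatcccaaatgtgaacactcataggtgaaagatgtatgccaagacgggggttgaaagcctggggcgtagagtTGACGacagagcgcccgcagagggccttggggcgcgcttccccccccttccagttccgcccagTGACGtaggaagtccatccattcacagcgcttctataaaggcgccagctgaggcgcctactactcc
Fosb: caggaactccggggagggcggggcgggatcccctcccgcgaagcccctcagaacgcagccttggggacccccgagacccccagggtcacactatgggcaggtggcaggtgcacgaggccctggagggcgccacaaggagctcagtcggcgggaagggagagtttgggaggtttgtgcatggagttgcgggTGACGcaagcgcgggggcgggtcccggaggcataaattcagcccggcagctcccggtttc
Jun: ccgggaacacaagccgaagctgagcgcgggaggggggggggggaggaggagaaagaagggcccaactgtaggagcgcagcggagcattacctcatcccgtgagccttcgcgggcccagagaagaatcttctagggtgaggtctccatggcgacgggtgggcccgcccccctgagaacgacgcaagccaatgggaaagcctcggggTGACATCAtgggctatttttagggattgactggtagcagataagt
Maff: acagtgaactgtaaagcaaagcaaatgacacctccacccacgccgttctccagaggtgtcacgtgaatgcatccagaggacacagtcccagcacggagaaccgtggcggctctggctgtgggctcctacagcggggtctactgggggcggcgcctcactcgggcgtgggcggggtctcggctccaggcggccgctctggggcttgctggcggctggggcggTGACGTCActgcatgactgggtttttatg

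Both strands were searched for 5 motifs. The core TGACG, which is also contained in TGACGTCA, was in 6 of the 11 windows and in 5 of the 9 members (Fos, Fosb, Junb, Batf and Maff), and 17.8% of 32851 mouse promoter windows of the same length hold it. In Fos it lay at -129 to -125 and again at -66 to -62 from the start. In Fosb it lay at -60 to -56. The full TGACGTCA was found in the Maff window printed above, at -29 to -22, and is in 1.55% of all windows. TGACATCA, the variant known from the Jun promoter as a site for Jun and ATF2, lay at -45 to -38 in Jun and, in a further Maff window, also at -45 to -38. It is in 2.93% of all windows. TGANTCA (6.75% of all windows) and the serum response element, searched as the CArG box (1.47%), were in none of the 11 windows. The search stopped at the upstream end of each window, so sites farther upstream, in Fos or any other member, could not be found. These absences hold for the windows only and do not show that a promoter lacks the motif. A match is a run of letters and not a measured binding site. The motifs did not separate the members by direction, since TGACG was present in members that were lower (Fos, Fosb), higher (Batf, Maff) and not called (Junb).

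Levels are given as CPM, counts relative to the scaled library size, and as mean ± SD with n = 3 in each group. The libraries held 19959958 to 24896411 counts with bryostatin 1 and 20564303 to 22219376 counts with IL-4 alone, with 1 transcript row per gene. The B cell markers of the list used here were all tested, and their CPM summed to 4996–5315 with bryostatin 1 and 5840–6106 with IL-4 alone. The test for differences was edgeR's quasi-likelihood test, with p-values adjusted by Benjamini-Hochberg over all genes tested, and a gene was called at an adjusted p under 0.05.

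The family did not move in one direction. Of the 9 members tested, 5 were called higher with bryostatin 1 (Fosl1, Fosl2, Jund, Batf and Maff), 3 were called lower (Fos, Fosb and Jun) and 1 was not called (Junb). Among all genes 58.1% were called, 30.1% as higher and 28.0% as lower, so that a call by itself was common in these data. The median log2 fold change of the 9 members was 0.28, and that of all genes tested was 0.00253. Fosl1 and Fosl2 had enough counts for the test only through the bryostatin samples. The counts of calls and the median of the members include both. The sizes varied more than the calls. The absolute log2 fold change had a median of 0.25 and a 90th percentile of 1.04 over all genes, and Maff, Fosl1, Fosl2, Fosb and Fos lay beyond that percentile whereas Jun, Batf, Jund and Junb did not. For 8 of the 9 members the 3 bryostatin samples did not overlap the 3 IL-4 samples, as for 63.5% of all genes. A two-sided exact permutation test gave p = 0.1 for each of these 8, the smallest that 3 against 3 samples allow. In a bulk sample, fewer cells that express a gene and less RNA per cell cannot be told apart.

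**Figure D1:**
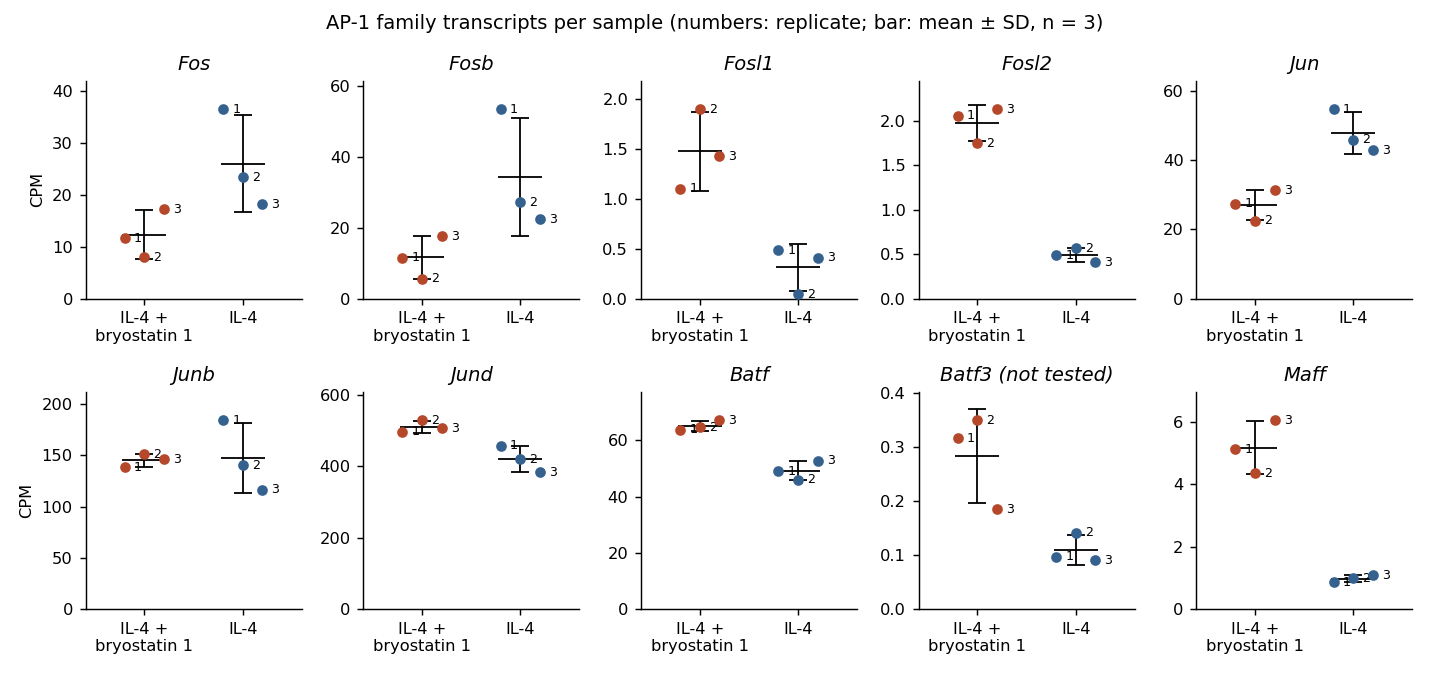
CPM of each of the 10 AP-1 family genes in each sample, with IL-4 + bryostatin 1 left of IL-4, points numbered by replicate and bars for mean ± SD (n = 3); each panel has its own axis from 0. Fos, Fosb and Jun sit lower with bryostatin 1, Fosl1, Fosl2, Jund, Batf and Maff sit higher, and the Junb groups overlap.

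Fos, the founding member and a classical immediate early gene, was lower with bryostatin 1. It had 11.7, 7.95 and 17.3 CPM with IL-4 + bryostatin 1, against 36.4, 23.4 and 18.2 CPM with IL-4. The groups did not overlap, but the highest bryostatin sample lay close below the lowest IL-4 sample. The means were 12.3 ± 4.70 CPM and 26.0 ± 9.39 CPM, a log2 fold change of -1.07 (standard error 0.22, edgeR adjusted p = 0.00039). With DESeq2, another tool, the standard error was larger, 0.44 (DESeq2 adjusted p = 0.027).

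Fosb, a close relative of Fos that is induced by the same stimuli, had the largest fall of the family. Its CPM were 11.6, 5.70 and 17.7 with IL-4 + bryostatin 1, against 53.4, 27.3 and 22.4 with IL-4. The order of the replicates within each group was the same as for Fos, and the groups did not overlap. The means were 11.7 ± 6.003 CPM and 34.4 ± 16.7 CPM, with a log2 fold change of -1.54 (standard error 0.29, edgeR adjusted p = 0.00017). With DESeq2 the standard error was again larger, 0.59 (DESeq2 adjusted p = 0.017). From the bottom of the 13864 genes tested, Fosb ranked 277 and Fos 543 by log2 fold change.

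Fosl1 and Fosl2, the Fos-related antigens, which lack the transactivation domain of Fos, changed the opposite way at far lower counts. Fosl1 had 28, 38 and 31 counts (1.11, 1.90 and 1.43 CPM) with IL-4 + bryostatin 1, against 10, 1 and 9 counts (0.487, 0.0473 and 0.411 CPM) with IL-4. The groups did not overlap, and IL-4 replicate 2 stood apart with its single count. The log2 fold change was 2.19 (standard error 0.40, edgeR adjusted p = 0.00015). Fosl1 overlaps Ccdc85b in the annotation, and the sources used here do not state whether the counting used strand. Ccdc85b, with 328, 243 and 264 counts with bryostatin 1 and 282, 247 and 312 counts with IL-4, overlapped between the groups.

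Fosl2 had 52, 35 and 46 counts (2.05, 1.75 and 2.13 CPM) with IL-4 + bryostatin 1, against 10, 12 and 9 counts (0.487, 0.568 and 0.411 CPM) with IL-4. The groups were wide apart and each was narrow. The log2 fold change was 2.01, or 4.03-fold (standard error 0.25 on the log2 scale, edgeR adjusted p = 1.8e-06). Fosl1 and Fosl2 passed the filter on low counts through the bryostatin samples, since the filter's level of 0.466 CPM was reached in all 3 of them but in only 1 IL-4 sample for Fosl1 and 2 for Fosl2. From the top, Fosl1 ranked 259 and Fosl2 306 among the genes tested.

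The Jun genes code for the partners that all Fos proteins need. Jun itself, a strong activator and an immediate early gene, had 27.5, 22.5 and 31.3 CPM with IL-4 + bryostatin 1, against 54.6, 45.9 and 42.9 CPM with IL-4. The groups were clearly separated. The means were 27.1 ± 4.39 CPM and 47.8 ± 6.09 CPM, with a log2 fold change of -0.81 (standard error 0.09, edgeR adjusted p = 8.4e-07).

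Junb, which can oppose Jun and often acts with Batf in lymphocytes, was not called. Its CPM were 138, 151 and 146 with IL-4 + bryostatin 1, against 184, 140.4 and 116 with IL-4. The bryostatin samples fell inside the range of the IL-4 samples, of which replicate 1 was highest and replicate 3 lowest. The log2 fold change was -0.02 (standard error 0.10, edgeR adjusted p = 0.88). Leaving out IL-4 replicate 1 gave a log2 fold change of 0.17 (edgeR adjusted p = 0.019) and leaving out IL-4 replicate 3 gave -0.17 (edgeR adjusted p = 0.049), so the direction for Junb depended on single IL-4 samples.

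Jund, the member that most resting cells keep at a steady level, was the most abundant and rose slightly. It had 497, 529.5 and 507 CPM with IL-4 + bryostatin 1, against 458, 420.4 and 384 CPM with IL-4. The groups did not overlap. The means were 511 ± 16.7 CPM and 421 ± 37.2 CPM, a log2 fold change of 0.28 (standard error 0.05, edgeR adjusted p = 0.00011).

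Batf had 63.9, 64.7 and 67.2 CPM with IL-4 + bryostatin 1, against 49.0, 46.1 and 52.8 CPM with IL-4. Both groups were narrow and did not overlap. The means were 65.3 ± 1.74 CPM and 49.3 ± 3.39 CPM, with a log2 fold change of 0.40 (standard error 0.05, edgeR adjusted p = 1.7e-06). Batf3, best known from dendritic cells, had 8, 7 and 4 counts with IL-4 + bryostatin 1 and 2, 3 and 2 counts with IL-4, too few for the test. Its groups did not overlap, but the lowest bryostatin sample had 4 counts and the highest IL-4 sample 3. With no filter on low counts its log2 fold change was 1.33 and edgeR's adjusted p was 0.12. That fit gave Fosb a standard error of 0.073, against 0.29 with the filter, so its p-values are not comparable with those above.

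Maff showed the largest log2 fold change of the family in the fit of all samples. Without IL-4 replicate 1 the order was reversed, with 2.62 for Fosl1 and 2.30 for Maff. Maff had 130, 87 and 131 counts (5.13, 4.35 and 6.06 CPM) with IL-4 + bryostatin 1, against 18, 21 and 24 counts (0.876, 0.994 and 1.10 CPM) with IL-4. The lowest bryostatin sample was far above the highest IL-4 sample. The means were 5.18 ± 0.854 CPM and 0.989 ± 0.110 CPM, a log2 fold change of 2.38 (standard error 0.19, edgeR adjusted p = 5.3e-09), or 5.21-fold, which placed Maff at rank 231 from the top.

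**Figure D2:**
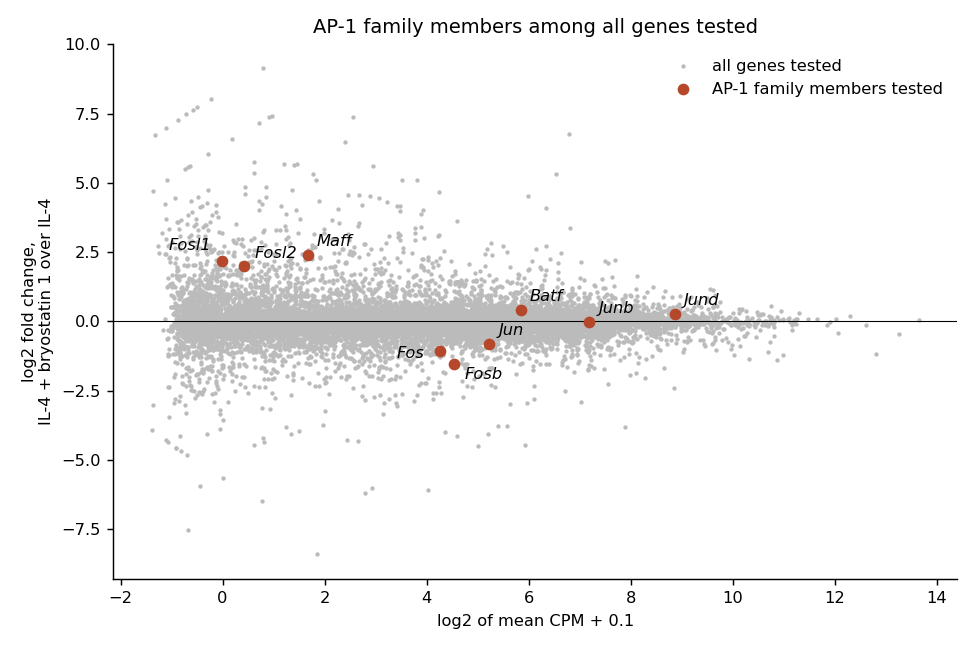
Log2 fold change, IL-4 + bryostatin 1 over IL-4, against log2 of the mean CPM + 0.1 for each of the 13864 genes tested (grey) and the 9 AP-1 family members tested (red). The 3 members with log2 fold changes above 2 (Fosl1, Fosl2 and Maff) are at low levels, and the 2 most abundant, Jund and Junb, are at 0.28 and -0.02.

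To compare levels between genes, CPM were divided by transcript length in kilobases. The order of the 10 genes was the same in both groups: Jund, Junb, Batf, Jun, Fos, Fosb, Maff, Fosl1, Batf3 and Fosl2. Jund was at 306 ± 10.0 CPM per kb with bryostatin 1 and 252 ± 22.3 CPM per kb with IL-4, and Fosl2 at 0.284 ± 0.0371 and 0.0699 ± 0.00618 CPM per kb in the same groups. The genes called higher thus stood at both ends of this order. Batf, at 68.3 ± 1.82 CPM per kb with bryostatin 1 and 51.6 ± 3.55 CPM per kb with IL-4, was the third in order, close below Junb with 80.1 ± 3.41 and 81.2 ± 18.9 CPM per kb. Among neighbours in the order, Jun and Fos overlapped in their samples in both groups, and so did Fos and Fosb. Fosb and Maff overlapped with bryostatin 1 only, as did Batf3 and Fosl2, whereas Fosl1 and Batf3 overlapped with IL-4 only. The other neighbours were apart in every sample. For Fosl2 and Maff the length came from another transcript row of the same gene than the counts.

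The make-up of the Fos and Jun families, computed from these levels per length after the values above had been seen, is a description with no test. Of the summed Fos family level, Fosl1 and Fosl2 together made up 9.30%, 19.3% and 7.78% with IL-4 + bryostatin 1, against 1.06%, 0.532% and 1.91% with IL-4. These shares did not overlap between the groups, and bryostatin replicate 2, with the lowest Fos and Fosb, was the highest. The share of Fos was nearly the same, 58.2 ± 0.546% with bryostatin 1 and 57.6 ± 2.96% with IL-4, so the larger share of Fosl1 and Fosl2 stood beside a smaller share of Fosb, 29.6 ± 5.73% with bryostatin 1 and 41.2 ± 2.88% with IL-4. The summed level itself was 10.0 ± 3.74 CPM per kb with bryostatin 1 and 21.7 ± 8.91 CPM per kb with IL-4. Jun made up 2.25%, 1.73% and 2.49% of the Jun family with IL-4 + bryostatin 1, against 4.35%, 4.18% and 4.37% with IL-4. Jund was the main member in both groups, with 77.6 ± 0.422% with bryostatin 1 and 72.6 ± 2.53% with IL-4. The ratio of the Jun family sum to the Fos family sum was 40.3, 62.3 and 28.2 with IL-4 + bryostatin 1, against 12.4, 18.7 and 20.7 with IL-4. Messages of the obligate partners of Fos thus outnumbered those of the Fos family in all 6 samples. These are RNA levels, and protein was not measured in these files.

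**Figure D3:**
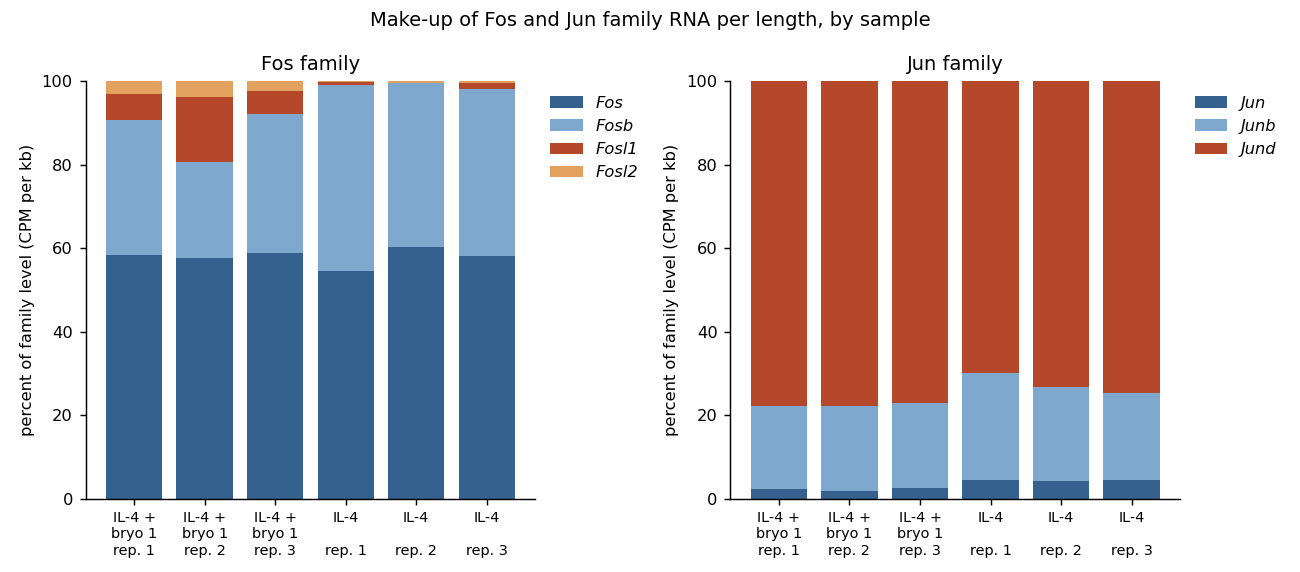
Shares of the summed Fos family level and of the summed Jun family level, in percent of CPM per kb, for each of the 3 IL-4 + bryostatin 1 samples and the 3 IL-4 samples. Fosl1 and Fosl2 take a larger share of the Fos family, and Jun a smaller share of the Jun family, in every bryostatin sample than in any IL-4 sample.

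Fos and Fosb varied far more between replicates than most genes. The biological coefficient of variation that edgeR estimates is drawn toward that of other genes, so it understates the raw spread of Fos and Fosb. It was 18.1% for Fos and 24.4% for Fosb. For Jun it was 7.69%, for Jund 4.36%, for Batf 3.73%, and in common over all genes 3.88%. Among the 10075 genes that averaged 5 CPM or more, the SD of Fos ranked at percentile 99.8 with bryostatin 1 and 99.7 with IL-4. Its highest replicate was 2.18 times the lowest with bryostatin 1 and 2.00 times with IL-4, and for Fosb these ratios were 3.11 and 2.38. Junb, with a coefficient of 8.55%, had a ratio of 1.09 with bryostatin 1 and 1.58 with IL-4. By the same SD, Junb ranked at percentile 57.5 with bryostatin 1 but at 99.2 with IL-4. Jun ranked at 98.4 with bryostatin 1 and 94.8 with IL-4, so a wide spread was not confined to Fos and Fosb.

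The spread had a shared pattern in the IL-4 group. IL-4 replicate 1 was the highest of its group in 6 of the 9 members tested and in 14 of 18 other immediate early genes, compared with 35.4% of all genes. IL-4 replicate 3 was the lowest in 6 of the 9 members and in 14 of the 18, compared with 34.0% of all genes. Egr1, an immediate early zinc finger factor, had 44.8, 32.3 and 36.9 CPM with IL-4 + bryostatin 1, against 138, 77.1 and 44.1 CPM with IL-4. It was called lower, with a log2 fold change of -1.17 (standard error 0.25, edgeR adjusted p = 0.00068), although bryostatin replicate 1 was above IL-4 replicate 3. In the bryostatin group the order was another: replicate 3 was highest and replicate 2 lowest in Fos, Fosb, Jun, Fosl2 and Maff, whereas replicate 2 was the highest in Junb, Jund and Fosl1. What sets this spread was not tested. Without IL-4 replicate 1 the log2 fold change of Fos was -0.75 and that of Fosb -1.08, and both were still called.

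**Figure D4:**
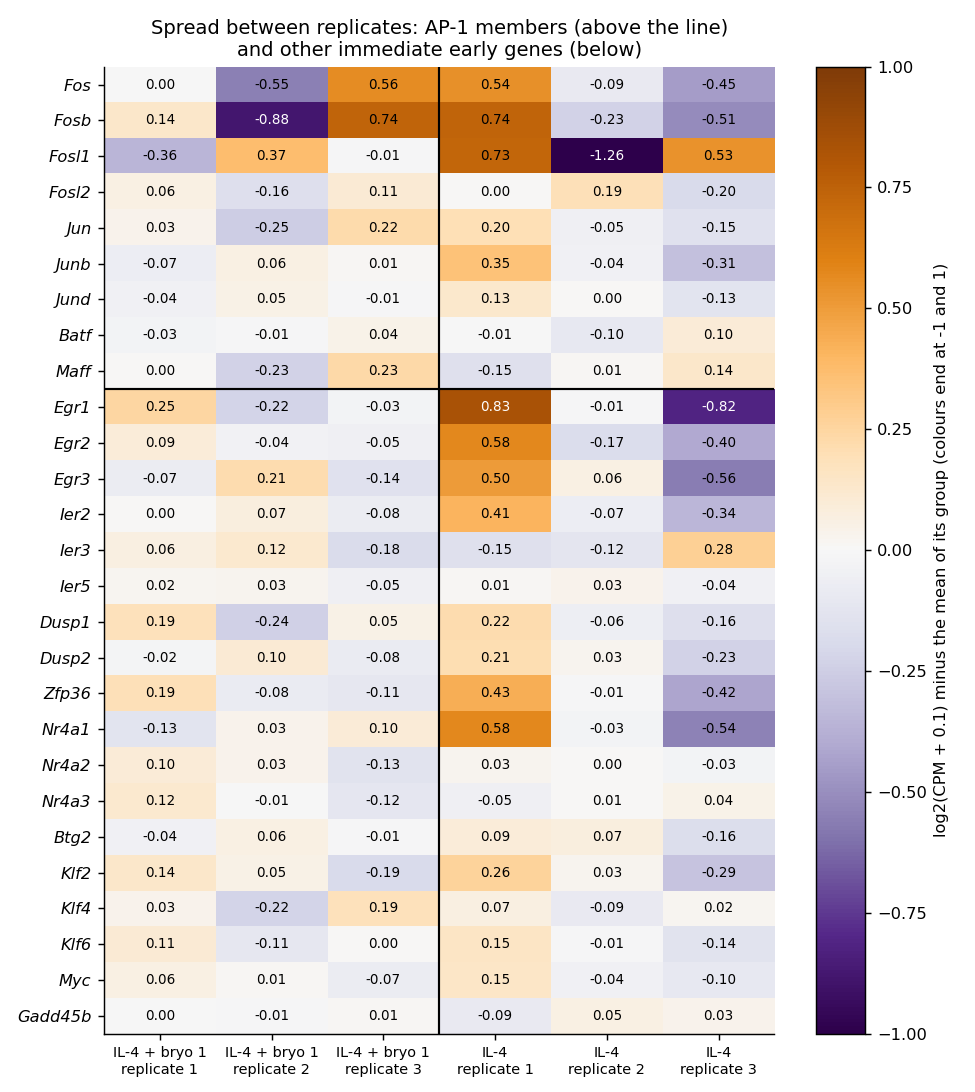
Log2(CPM + 0.1) of each sample minus the mean of its group, for the 9 AP-1 family members tested (above the line) and 18 other immediate early genes (below), with the IL-4 + bryostatin 1 samples left of the IL-4 samples. IL-4 replicate 1 is above its group mean and IL-4 replicate 3 below it for Fos, Fosb, Jun, Junb, Jund and most of the early genes, whereas in the bryostatin samples Fos, Fosb and Jun are lowest in replicate 2.

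The other immediate early genes also went both ways: of 18 tested, 8 were called higher, 7 lower and 3 were not called, with a median log2 fold change of 0.10. Such a split was common, since 30.1% of all genes tested were called higher and 28.0% lower. Nr4a2, a nuclear receptor, had the highest log2 fold change of those tested, with 1.11, 1.05 and 0.925 CPM with IL-4 + bryostatin 1, against 0.195, 0.189 and 0.183 CPM with IL-4, a log2 fold change of 2.41 (standard error 0.35). Klf2, a quiescence factor of lymphocytes, had the largest fall, with 4.74, 4.45 and 3.74 CPM with IL-4 + bryostatin 1, against 36.1, 30.7 and 24.6 CPM with IL-4, a log2 fold change of -2.81 (standard error 0.13). Neither overlapped between the groups, but Nr4a2 passed the filter on low counts only through the bryostatin samples, with 0 IL-4 samples at its level. The counts and median of the early genes include Nr4a2. Ier2 (log2 fold change 0.27, edgeR adjusted p = 0.051) and Dusp1, a phosphatase that switches off MAP kinases (-0.08, edgeR adjusted p = 0.56), were not called.

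Among 11 further factors of the AP-1 type, 7 were tested, of which 5 were called higher, none lower and 2 were not called (Mafk and Atf7). The median log2 fold change of the 7 was 0.39. Over all genes, 30.1% were called higher and 28.0% lower. Atf3, a stress-induced factor that pairs with Jun proteins, was highest in this list, with 8.89, 8.55 and 9.20 CPM with IL-4 + bryostatin 1, against 0.438, 0.426 and 0.731 CPM with IL-4. Its log2 fold change was 4.04 (standard error 0.18, edgeR adjusted p = 2.3e-12). Maf (2.78, standard error 0.45) and Jdp2, a repressor that pairs with Jun (1.69, standard error 0.21), named after their values were seen, were also called higher, from IL-4 levels of at most 0.189 and 1.598 CPM. Atf3 and Maf passed the filter on low counts through the bryostatin samples, since its level was reached in 1 IL-4 sample for Atf3 and in 0 for Maf. The counts and median of this list include both. Atf2, a Jun partner on TGACGTCA, had a small rise of 0.24 on the log2 scale (standard error 0.04). The small Maf proteins differed from each other, with Mafg called higher at 0.39 (standard error 0.05) and Mafk at -0.14 (edgeR adjusted p = 0.076), beside 2.38 for Maff.

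**Figure D5:**
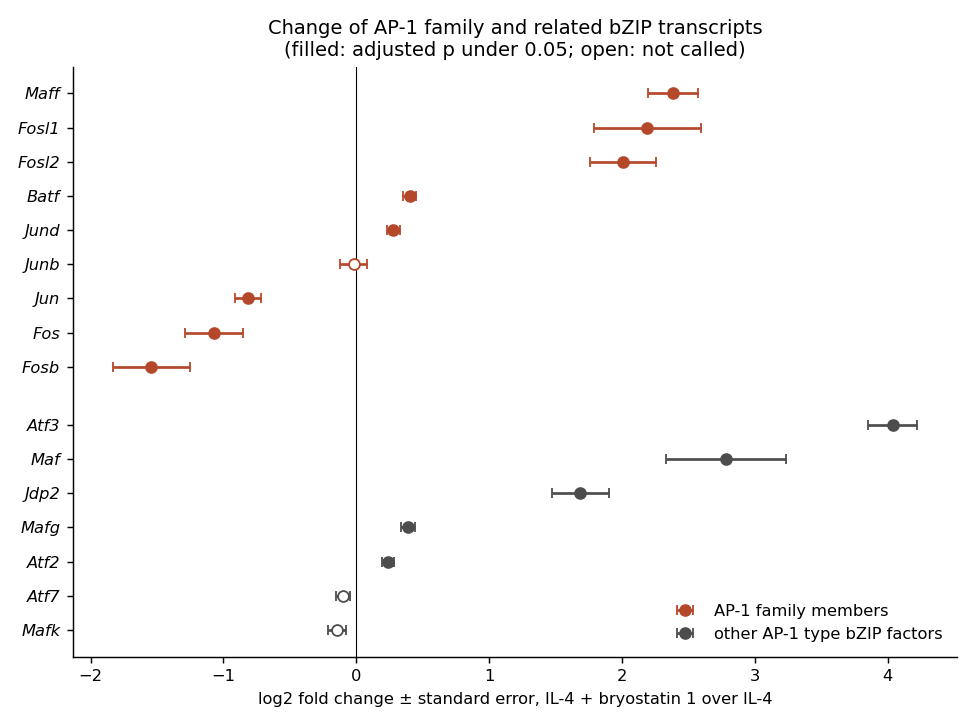
Log2 fold change, IL-4 + bryostatin 1 over IL-4, with its standard error, for the 9 AP-1 family members tested and the 7 further AP-1 type factors tested; filled points were called at an adjusted p under 0.05. Atf3 lies highest at 4.04 and Fosb is the lowest of the family at -1.54.

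Of 25 genes for the more distant CREB, C/EBP, CNC, BACH and PAR factors, 18 were tested, with 9 called higher, 4 lower and 5 not called, and a median log2 fold change of 0.11. The shares over all genes tested were 30.1% higher and 28.0% lower. Ddit3, the stress factor CHOP, was at the top with 1.74 (standard error 0.06) and Dbp, a clock output gene, at the bottom with -1.09 (standard error 0.09). Bach2, which pairs with small Maf proteins and restrains plasma cell formation, was called higher by only 0.13 (standard error 0.04, edgeR adjusted p = 0.018). Its CPM were 117, 105.4 and 113 with IL-4 + bryostatin 1, against 97.6, 105.2 and 104 with IL-4, so the groups touched without overlapping.

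All 9 genes listed as DNA-binding partners of AP-1 were tested, with 2 called higher, 6 lower and 1 not called (median log2 fold change -0.19). Among all genes tested, 30.1% were called higher and 28.0% lower. Irf4, the partner of Batf on composite sites in activated B cells, had 330, 346 and 347 CPM with IL-4 + bryostatin 1, against 226, 233 and 234 CPM with IL-4. Its log2 fold change was 0.56 (standard error 0.04, edgeR adjusted p = 2.0e-10), so Batf and Irf4 were both higher. Irf8, which can take the place of Irf4 beside Batf, was lower by a small amount, with a log2 fold change of -0.19 (standard error 0.03). Ets1, which binds jointly with AP-1, had 155, 150 and 156 CPM with IL-4 + bryostatin 1, against 345, 352 and 344 CPM with IL-4, a log2 fold change of -1.17 (standard error 0.03). The groups of Irf4, Irf8 and Ets1 did not overlap.

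The kinases and factors that act upstream of Fos and Jun did not move in one direction as a list. Neither did all genes tested, with 30.1% called higher and 28.0% lower. Of 26 genes for MAP kinases, their kinases and the SRF and ternary complex factors, 23 were tested, and 6 were called higher, 8 lower and 9 were not called (median log2 fold change -0.09). Elk3, a ternary complex factor of the Fos promoter that represses in its resting form, was highest with 0.94 (standard error 0.05), and Mapk11, a p38 kinase, lowest with -1.02 (standard error 0.09). Of 6 genes for turnover and modification of Jun and Fos proteins, 2 were called higher, 3 lower and 1 was not called. Fbxw7, a ubiquitin ligase subunit that targets Jun, was lowest with -0.65 (standard error 0.04). Phosphorylation and protein stability cannot be seen in RNA counts.

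Of 18 genes with classical AP-1 sites, 11 were tested, with 6 called higher, 2 lower and 3 not called. Among all genes tested, 30.1% were called higher and 28.0% lower. Of the 11, Mmp9, Plau and Itgax passed the filter on low counts through the bryostatin samples, and the counts of this list include them. Mt2, a metallothionein, had 5.02, 5.90 and 6.19 CPM with IL-4 + bryostatin 1, against 0.730, 1.09 and 0.685 CPM with IL-4, a log2 fold change of 2.76 (standard error 0.19). Spp1, which codes for osteopontin, went the other way, with 1.34, 2.25 and 1.57 CPM with IL-4 + bryostatin 1, against 3.26, 3.03 and 3.24 CPM with IL-4 (log2 fold change -0.90, standard error 0.19). Of 8 genes that depend on Batf in mouse lymphocytes, 3 were tested, with 2 called higher and 1 lower. Prdm1, the plasma cell factor Blimp-1, had 14.6, 12.8 and 17.2 CPM with IL-4 + bryostatin 1, against 3.89, 4.31 and 5.66 CPM with IL-4, a log2 fold change of 1.68 (standard error 0.13). Bcl6, the germinal centre repressor, had 45.7, 44.0 and 45.6 CPM with IL-4 + bryostatin 1, against 63.7, 70.2 and 71.6 CPM with IL-4, a log2 fold change of -0.60 (standard error 0.05). Neither gene overlapped between the groups. Binding of any AP-1 protein was not measured, so these lists do not tell which genes are bound.

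Single markers of other cell types differed between the groups as well, in both directions. For comparison, 30.1% of all genes tested were called higher and 28.0% lower. Those on the myeloid list summed to 23.5–27.1 CPM with bryostatin 1 and 8.54–11.03 CPM with IL-4. Of its 12 genes 4 were tested, 1 was called higher (Adgre1, log2 fold change 2.64), 1 lower (Flt3, -1.24) and 2 were not called, Lyz2 among them (log2 fold change -0.01), and Ly6g was at 0. Adgre1 alone had 21.2, 18.7 and 19.2 CPM with IL-4 + bryostatin 1, against 2.77, 3.93 and 2.79 CPM with IL-4. The T cell list summed to 76.8–86.8 CPM with bryostatin 1 and 42.4–45.7 CPM with IL-4, nearly all of it Lck, while Cd3e was at 0.237 CPM or less in every sample. Of the 10 T cell genes 3 were tested, with Lck (log2 fold change 1.05) and Trac (1.00) called higher and Cd5 (-1.01) lower. Trac reached the filter's level in 2 IL-4 samples. The NK list, with 0 of 6 genes tested, summed to 0.786–1.58 CPM with bryostatin 1 and 0.331–0.502 CPM with IL-4. Of 6 erythroid genes, 1 was tested and called higher (Hbb-bt, log2 fold change 5.08), and the list summed to 23.98–30.8 CPM with bryostatin 1 and 0.639–1.42 CPM with IL-4, with Alas2 at 0, and Hbb-bt reached the filter's level in 2 IL-4 samples. Of 5 plasma cell genes, 4 were tested, with Prdm1, Jchain (1.28) and Sdc1 (1.03) called higher and Xbp1 (-0.76) called lower by log2 fold change. Of the 8 B cell markers, 2 were called higher, 5 lower and 1 was not called, with Ebf1 highest at 0.37 and Blk lowest at -0.90. The part of such cells in the levels of Fosl1, Fosl2, Maff and Batf3, which had at most 6.06 CPM in any sample, was not tested.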

How the data were processed

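Naive B cells were isolated from mouse spleen, and total RNA was made into libraries with a directional kit. The authors trimmed the reads with cutadapt and sickle, used HISAT2 for mapping and SAMtools for sorting, and obtained counts with featureCounts. The sources used here do not state the versions, the genome build or the strand setting. The deposited counts are whole numbers for 139023 transcript rows. Columns of the authors' own comparison (log2 fold change, q-value and p-value) were also deposited and were not used. For each gene the row with most counts on average was taken. The rows of each member held nearly the same counts, and for other genes this was not examined row by row.

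Genes were kept with filterByExpr (minimum count 10, minimum total 15). Libraries were scaled by DEGES, rewritten here (TMM, exact test, false discovery rate 0.1, floor 5%, 3 rounds). In R 4.3.3, edgeR 4.0.16 gave the quasi-likelihood F test (no covariate, residual degrees of freedom 4), and p-values were adjusted by Benjamini-Hochberg. An edgeR standard error is the log2 fold change divided by the square root of F. This F rests on a variance that edgeR moderates across genes, so the error can be too small for genes with a wide spread. Levels per length used GENCODE M21 transcripts matched on RefSeq accession. Where log2 CPM was averaged, 0.1 CPM was added. DESeq2 1.42.0 was an alternative, beside scaling, filter, row summing, thresholds, a replicate block and each sample left out. Python 3.11.15 with matplotlib 3.10.9, numpy 2.4.6 and pandas 2.3.3 made the tables and figures.

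The members and lists were chosen with earlier results of these data known. The text names all 10 members, the called gene with the highest and the lowest log2 fold change of each other list, and Atf3, Irf4, Irf8, Bach2, Egr1, Ier2 and Dusp1, and for likeness the 5 genes with the highest Pearson r. A few genes within this rule are not reported here. Mafg, Mafk, Maf, Jdp2, Atf7, Ccdc85b, Prdm1 and the single marker genes were named after their values were seen. On simulated counts for 13864 genes, edgeR recovered 62 of 67 planted changes of 1.5-fold, 65 of 67 of 2-fold and 66 of 66 of 4-fold. It called 8 of 13505 unchanged genes. Every simulated gene had the common variation of 3.88%, below the 18.1% of Fos and 24.4% of Fosb. Changes were planted in far fewer genes than were called here, and in none as low as Fosl1. Recovery for such members was therefore not tested. The chi-square per gene between samples of a group was 2.31 to 4.87, above sampling noise, so no sample was counted as a copy. Counts bear counting error in addition to the spread between samples.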

Additional observations from a re-analysis of the deposited data

How the results depend on the processing

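The calls of Fos, Fosb, Fosl1, Fosl2, Jun, Jund, Batf and Maff kept their direction and stayed past the threshold in all alternatives of scaling, tool, filter, row, block and left-out sample that tested them (14 each, and 13 for Fosl1 and Fosl2). The highest adjusted p over these was 0.027 for Fos and 0.017 for Fosb, both with DESeq2. With no filter on low counts the standard errors of Fos and Fosb were 0.077 and 0.073, far below the 0.22 and 0.29 with the filter. The p-values of that setting are therefore not comparable with the others. With at least 10 counts required in each library, 3 members were called higher, since Fosl1 and Fosl2 were not tested there. With a log2 fold change past 1 required as well, 3 members were called higher (not Jund and Batf) and 2 lower (not Jun), and over all genes 841 were higher and 623 lower, against 4177 and 3881. Junb, not called in the analysis above, was at 0.0043 with scaling by total counts and at 0.010 without IL-4 + bryostatin 1 replicate 1. It was at 0.17 without IL-4 replicate 1 and at -0.17 without IL-4 replicate 3. The cause was not tested.

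Leaving out each sample in turn gave 5–6 members higher and 3–4 lower, and over all genes 3767–4002 higher and 3516–3871 lower. The log2 fold change was -1.38 to -0.75 for Fos, -1.94 to -1.08 for Fosb, 1.68 to 2.62 for Fosl1 and 1.89 to 2.12 for Fosl2. It was -0.92 to -0.71 for Jun, -0.17 to 0.17 for Junb, 0.21 to 0.34 for Jund, 0.35 to 0.45 for Batf and 2.26 to 2.49 for Maff. Fosl1 rests on 1 to 38 counts per library and Batf3 on 2 to 8, where depth limits the precision.

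Samples with the same replicate number correlated by 0.156, 0.0683 and -0.0067 in their deviations from the group means. The sources used here do not state whether samples with the same number share a mouse or batch, and these correlations cannot decide it. IL-4 + bryostatin 1 replicates 1 and 2 correlated best with their own number in the IL-4 group, and replicate 3 with IL-4 replicate 2 (0.0506). A fit with the replicate block called 4274 genes as higher and 4022 as lower, among them 5 and 3 members. The block changed no call of a member.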

Other observations

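Over the 6 samples and 10075 genes that averaged 5 CPM or more, the genes most like Fos in their deviations from the group means were Fibp, Baz2a, Ccdc88c, Nemf and Zfp324, with Pearson r between 0.995 and 0.998. By log2 CPM itself, those most like Fosl2 were Alg10b, Kif5b, Inka2, Ahi1 and Gch1, with Pearson r between 0.998 and 0.999. These are descriptions, chosen as the highest of 10075 values over 6 samples that share their libraries and, for Fosl2, the difference between the groups.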
